A study of Mus musculus with 16 samples.

Results

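Lipoprotein lipase, the lipins and the genes of lipoprotein loading and uptake were followed as a set of 7 genes: Lpl, Lpin1, Lpin2, Apoe, Abca1, Lrp1 and Vldlr. They were taken by gene name from abundance tables of the dentate gyrus, and all 7 were found, as 1 entry each in every library, among 24421 gene names. The RNA came from male C57BL/6 mice one year (12 months) old. Mice were p16Ink4a +/+ (wild type, p16 WT) or p16Ink4a -/- (knockout, p16 KO), and either stayed sedentary (CTL) or had free access to a running wheel for 12 days (RUN). Libraries 1 to 4 are p16 WT CTL (sedentary wild types), 5 to 8 p16 KO CTL (sedentary knockouts), 9 to 12 p16 WT RUN (running wild types) and 13 to 16 p16 KO RUN (running knockouts). Each library pools dentate gyri of 2 mice, and differences between individual mice are therefore not seen. The null allele is present in all cells from conception and leaves p19Arf functional, and it was made in FVB mice before being bred into C57BL/6.

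Lipoprotein lipase cuts triglycerides carried by lipoproteins and releases fatty acids, and in the brain it is also made by neurons and glia. Lipins are phosphatidate phosphatases that make diacylglycerol, a precursor of triglycerides and phospholipids, and they can also act in the nucleus as coregulators of lipid genes. Brain lipoproteins are built mainly by glia around apolipoprotein E. ABCA1 loads them with cholesterol and phospholipid, and receptors of the LDL receptor family, among them LRP1 and the VLDL receptor, take them up. The VLDL receptor is also a receptor for reelin.

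Levels are given as deposited TPM, an abundance corrected for gene length, with mean ± SD of 4 libraries. Set A sets running knockouts against sedentary knockouts, and Set B sedentary knockouts against sedentary wild types. Set C sets running against sedentary wild types, Set D running knockouts against sedentary wild types, and Set E running knockouts against running wild types. The interaction is the log2 effect of running in knockouts minus that in wild types. Sets A and B share the sedentary knockout libraries, which enter them with opposite signs, and other sets also share groups, so their results are not independent of each other. Log2 fold changes (± SE) come from limma on log2(scaled TPM + 0.1) over 17317 genes. A gene was called at an unadjusted limma p under 0.05, and p-values adjusted over all genes (Benjamini-Hochberg) are given beside it. An exact permutation test (two-sided) of a single gene over the 35 splits cannot go below p = 0.0286.

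Markers of granule neurons were present in all libraries, with Prox1 between 58.1 and 187 TPM, Dsp between 26.7 and 110.2 TPM, and Calb1 between 89.2 and 231 TPM. Cdkn2a, the gene that holds p16Ink4a, was at most 0.586 TPM in any library and at 0 in 8 of 16, and since its symbol also covers p19Arf it does not check the genotypes. Relative coverage ranged from 0.621 to 1.95. Library 2 of the sedentary wild types and libraries 6 and 7 of the sedentary knockouts stood apart. Their 9 nuclear long noncoding RNAs, such as Malat1, Neat1 and Meg3, summed to 1031, 583 and 528.5 scaled TPM. The other 13 libraries reached 1799 to 2467, and libraries 2 and 7 were the most deeply covered (1.95 and 1.68). Most results on sedentary groups are therefore also given without these 3 libraries, a choice made after seeing the data. The sedentary knockouts then rest on libraries 5 and 8 alone, and the sedentary wild types on libraries 1, 3 and 4.

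The 7 genes spanned a wide range of levels. Apoe was at 4350 ± 766.5 TPM (SD over 16 libraries), the 3rd highest mean of all gene names. It was followed by Lrp1 at 144 TPM, Lpl at 78.9, Lpin2 at 67.5, Vldlr at 36.6, Lpin1 at 16.6 and Abca1 at 12.9 TPM. Coverage per base of Abca1, the least covered, was between 24.1 and 73.3. In mm10, the tables place Lpl at chr8:68880555-68906932 (plus strand), Lpin1 at chr12:16535669-16589770 (minus), Lpin2 at chr17:71183978-71249818 (plus) and Apoe at chr7:19696244-19699188 (minus). Abca1 lies at chr4:53030789-53159895 (minus), Lrp1 at chr10:127538158-127621148 (minus) and Vldlr at chr19:27217020-27254231 (plus). These are the spans of whole genes, exons and introns together.

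**Figure D1:**
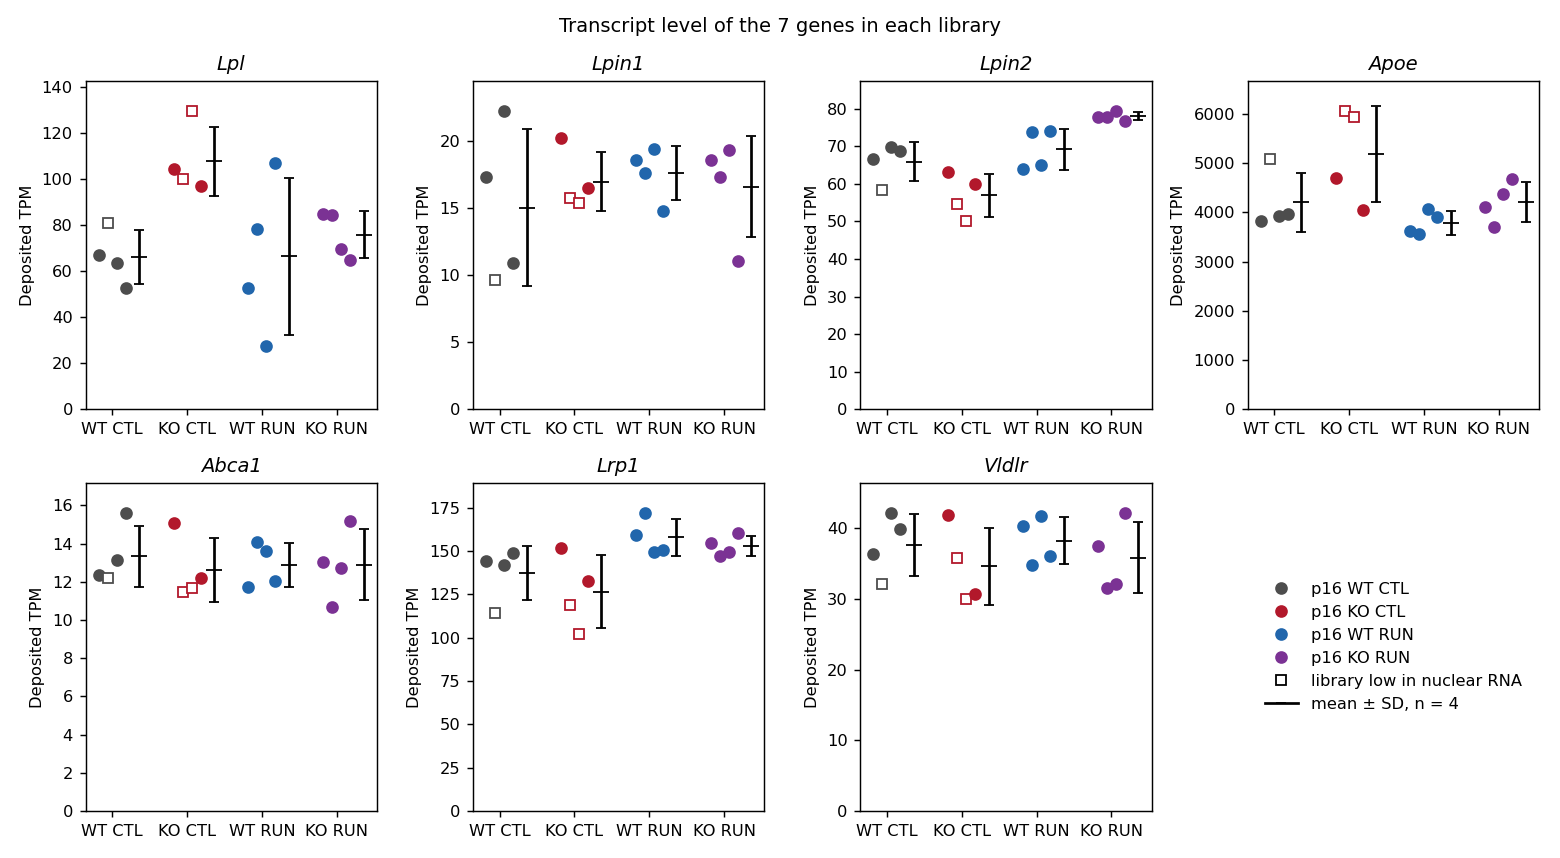
Level of each gene in deposited TPM (vertical axis, from 0) in the 16 libraries by group, with mean ± SD of 4 libraries as a bar. Open squares are the 3 sedentary libraries low in nuclear RNA. Lpin2 lies between 76.8 and 79.4 TPM in running knockouts, above every library of the other groups, and Lpl spreads from 27.4 to 107 TPM in running wild types.

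The promoters of Lpin2, called in most comparisons, and of Abca1, called in none, are shown to let their sequence be compared. Both are RefSeq sequences of GRCm38.p6, from 250 bases before to 50 after a start site that coincides with the gene's start in the tables. Of the 7 genes, 6 had an entry. Capitals mark letters that match 1 of 5 motifs, searched on both strands. The E-box, bound by factors of the helix-loop-helix family, was searched as CACGTG. The cyclic AMP response element was searched with its full palindrome TGACGTCA. The GC box, bound by Sp1 and related factors, was searched as GGGCGG. For the TATA box the letters were TATAAA. The direct repeat, of the kind bound by liver X receptors, was GGTNA repeated once after 5 bases of any kind. The Lpin2 window is chr17:71183728-71184027 on the plus strand and the Abca1 window chr4:53159846-53160145 on the minus strand.
Lpin2: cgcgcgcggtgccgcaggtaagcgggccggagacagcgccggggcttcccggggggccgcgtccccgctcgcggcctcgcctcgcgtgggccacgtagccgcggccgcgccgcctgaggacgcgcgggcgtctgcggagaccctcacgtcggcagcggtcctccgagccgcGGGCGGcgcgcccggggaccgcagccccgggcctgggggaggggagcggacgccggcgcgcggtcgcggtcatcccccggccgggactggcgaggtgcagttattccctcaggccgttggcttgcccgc
Abca1: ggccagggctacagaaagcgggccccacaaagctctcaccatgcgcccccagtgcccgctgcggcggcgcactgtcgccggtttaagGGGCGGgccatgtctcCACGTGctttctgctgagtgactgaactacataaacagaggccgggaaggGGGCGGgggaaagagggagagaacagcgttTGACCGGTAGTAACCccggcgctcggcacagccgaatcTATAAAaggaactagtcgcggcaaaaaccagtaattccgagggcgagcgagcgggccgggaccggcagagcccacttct
The Lpin2 window is 80.7% G and C and holds 1 match, a GC box. The Abca1 window, 62.7% G and C, holds an E-box, a direct repeat, 2 GC boxes and a TATA box, none overlapping another. Over the 32851 promoter windows of the same length, 35.7% hold a GC box, 13.6% a TATA box, 7.15% an E-box, 1.79% the cyclic AMP element and 0.718% the direct repeat. The windows of Lrp1 and Vldlr each hold 1 GC box and that of Apoe none of the 5 motifs. The matches describe letters only.

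Lpl, the lipase, was highest in sedentary knockouts. It measured 104, 99.9, 129.5 and 96.7 TPM in their 4 libraries, against 67.1, 80.7, 63.7 and 52.5 TPM in sedentary wild types. All 4 knockout libraries lay above all wild-type ones, with means of 108 ± 14.9 and 66.0 ± 11.6 TPM. Lpl was 0.77 ± 0.16 higher in Set B on the log2 scale, or 70.8% (limma p = 0.000988, adjusted p = 0.625, exact permutation p = 0.0286), the 20th smallest p of all genes. Among all genes 6.69% were called in Set B, and 2.70% had groups that did not overlap. The running knockouts read 84.8, 84.1, 69.7 and 64.6 TPM, all below the sedentary knockouts. In Set A Lpl fell by 0.57 ± 0.13 on the log2 scale (limma p = 0.00191, adjusted p = 0.147, exact permutation p = 0.0286), to a mean of 75.8 ± 10.2 TPM. Here 18.5% of all genes were called and 10.4% did not overlap. Against sedentary wild types the running knockouts differed by 0.20 (95% interval -0.15 to 0.55, exact permutation p = 0.257), and the libraries overlapped.

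The running wild types gave no defined level of Lpl. Their libraries read 52.6, 78.2, 27.4 and 107 TPM, a 3.91-fold range within the group. The SD of their log2 levels was 0.87, where the median SD of genes of like mean level in this group was 0.081. In sedentary wild types, sedentary knockouts and running knockouts it was 0.30, 0.23 and 0.21, against medians of 0.11, 0.12 and 0.074. Library 11 was the lowest of all 16 and library 12 the second highest. Set C gave -0.16 (95% interval -0.998 to 0.68), Set E 0.36 (-0.46 to 1.18) and the interaction -0.41 (-1.33 to 0.51). Without library 11 these values were 0.22, -0.02 and -0.79, of which the interaction was called (adjusted p = 0.751, and between 0.586 and 0.991 without any other single library).

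Without libraries 2, 6 and 7 Lpl was still called in Set B, at 0.76, and in Set A, at -0.43 (adjusted p = 0.629 and adjusted p = 0.494). Set D then reached 0.33 and was called, and leaving out library 2 alone gives this value too. With all 16 libraries in one fit, Lpl in Set A was again -0.57 but not called.

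Markers of microglia, pyramidal neurons and astrocytes, the last given beside Apoe, had mostly the signs of Lpl in Sets A and B with all libraries. Lists of mature oligodendrocyte markers and of disease-associated microglia genes are not reported here. The lists given are therefore not all that may share the signs of Lpl. The called counts of all marker lists stand against 6.69% of all genes called in Set B and 18.5% in Set A, or 6.68% and 8.49% with libraries 2, 6 and 7 left out. Of 12 microglia markers, among them Cx3cr1, P2ry12 and Tmem119, 12 were positive in Set B (2 called) and 0 in Set A (4 called lower). Their sum was 643 to 961 scaled TPM in sedentary knockouts, 616.5 to 805 in sedentary wild types, 580.3 to 703 in running knockouts and 600.0 to 718 in running wild types. With libraries 2, 6 and 7 left out, 7 of the 12 were positive in Set B and 4 in Set A, none of them called by limma, and the medians were 0.03 and -0.05. Of 10 markers of CA1 and CA3 pyramidal neurons, such as Wfs1, Fibcd1 and Mpped1, 8 were positive in Set B (1 called) and 2 in Set A (2 called lower). Their sums were 388 to 689 scaled TPM in sedentary knockouts, 344 to 486 in sedentary wild types, 318 to 464 in running knockouts and 336 to 483 in running wild types. With the 3 libraries left out, 9 of the 10 were positive in Set B (3 called) and 2 in Set A (4 called lower). Library 8, a sedentary knockout that stays in these fits, had the highest sum of any library, 689 scaled TPM. Of 8 oligodendrocyte precursor markers, 7 were positive in Set B (4 called) and 3 in Set A (1 called lower), and with the 3 libraries left out 8 and 7, none of them called by limma. Their sums were 206 to 259.8 scaled TPM in sedentary knockouts, 182 to 223.5 in sedentary wild types, 202 to 259 in running knockouts and 172 to 252 in running wild types. Of 10 radial glia and neural stem cell markers, 8 were positive in Set B (2 called) and 5 in Set A (1 called higher, 2 lower), and with the 3 libraries left out 8 (4 called higher, median 0.27) and 6 (1 higher, 2 lower). Their sums, 441 to 591 scaled TPM in sedentary knockouts and 352.5 to 440.5 in sedentary wild types, did not overlap, and running knockouts had 367 to 449.6 and running wild types 361 to 464. None of these markers was at 0 in any library. Choroid plexus markers summed to 234.5 scaled TPM in library 7, which had the highest Lpl of the sedentary knockouts, and to 17.7 to 64.0 in the other 15 libraries. Of the 9 tested 6 were positive in Set B (none called by limma) and 3 in Set A (1 called higher), and 5 of the 10 listed were at 0 in some library. Of 10 interneuron markers 8 were positive in Set B (2 called) and 5 in Set A (2 called higher, 1 lower), and without the 3 libraries 9 (none called by limma) and 6 (2 called higher). Fewer cells of a type and less RNA per cell cannot be told apart in such samples, and the part of these markers in the Lpl differences was not tested.

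Partners of lipoprotein lipase were mostly low or not called. Of 15 listed genes, Lpl included, 10 were tested. Gpihbp1, which carries the enzyme across capillary endothelium, and Apoa5 were listed at 0 in all libraries, and the activator Apoc2 was at or below 0.475 TPM. Sel1l and Lmf1, which serve maturation of the enzyme in the endoplasmic reticulum, were at 103 and 21.6 TPM, and the inhibitor Angptl4 at 2.06 TPM, none of them called. Beside Lpl, the one called gene was Apoc1, an apolipoprotein that restrains the lipase. Apoc1 was 0.79 ± 0.30 higher in Set B (adjusted p = 0.625, exact permutation p = 0.0857) and 0.72 ± 0.27 higher in Set E (adjusted p = 1, exact permutation p = 0.0571), with overlapping libraries. Without libraries 2, 6 and 7 it was 0.58 in Set B and not called. The median over the list was 0.06 in Set B and 0.11 in Set A, where that over all genes was -0.01 and 0.02.

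Lpin2, a phosphatidate phosphatase, was highest in running knockouts and varied least there. Their 4 libraries read 77.9, 77.9, 79.4 and 76.8 TPM (78.0 ± 1.1). They lay above all libraries of running wild types (64.1, 73.7, 64.9 and 74.1 TPM), of sedentary wild types (66.7, 58.3, 69.7 and 68.8 TPM) and of sedentary knockouts (63.2, 54.7, 50.2 and 59.9 TPM). In Set A Lpin2 rose by 0.39 ± 0.06 on the log2 scale, or 31.2% (limma p = 6.6e-05, adjusted p = 0.0806, exact permutation p = 0.0286), the 10th smallest p of all genes. Set D gave 0.24 ± 0.05 (limma p = 0.000857, adjusted p = 0.236, exact permutation p = 0.0286), where 8.63% of all genes were called and 5.68% did not overlap. Set E gave 0.18 ± 0.07 (limma p = 0.0216, adjusted p = 1, exact permutation p = 0.0286), where 3.87% of all genes were called and 2.46% did not overlap. In Set B Lpin2 was -0.15 ± 0.06 and called lower (limma p = 0.0466, adjusted p = 0.625, exact permutation p = 0.0857), with overlapping libraries. Running in wild types gave 0.06 (95% interval -0.11 to 0.23). The means ranked from running knockouts to running wild types (69.2 TPM), sedentary wild types (65.9 TPM) and sedentary knockouts (57.0 TPM), and the middle groups did not separate beyond their spread. Genes of like mean level also varied least in running knockouts. Their median SD of log2 levels was 0.075 there and 0.083 to 0.115 in the other groups. The SD of Lpin2 in running knockouts was 0.034, and 10.7% of those genes had a smaller one.

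The effect of running on Lpin2 was 0.33 ± 0.09 larger in knockouts than in wild types on the log2 scale (interaction, 95% interval 0.14 to 0.53, adjusted p = 0.797). Lpin2 was the one member called there, where 5.48% of all genes were called, and its p was the 45th smallest. Without libraries 2, 6 and 7 it was 0.30 and still called, and the rise in Set A was 0.32 and still called (adjusted p = 0.343). Without library 5 the adjusted p in Set A was 0.0377, and leaving out any other single library it lay between 0.139 and 0.266. Both results were called whichever single library was left out. The call in Set B was lost without library 1, 3, 4, 6 or 7 (-0.14 to -0.11) and without libraries 2, 6 and 7 together (-0.11). That in Set E was lost without library 9, 11 or 15 (0.14 to 0.17).

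Granule neuron markers had mostly the signs of Lpin2 in Sets A and B but not in Set D. Of 10, such as Prox1, Dsp and Calb1, 9 were positive in Set A (2 called) and 0 in Set B, and without libraries 2, 6 and 7 the counts were 9 (2 called) and 0 (2 called lower). In Set D, where 8.63% of all genes were called, 5 of the 10 were positive (1 called). In the interaction 9 were positive (median 0.29, none called by limma, 5.48% of all genes called), and without the 3 libraries also 9, with 3 called higher (median 0.65, 7.25% of all genes called). Their sums were 1058 to 1500 scaled TPM in running knockouts, 978 to 1329 in running wild types, 798 to 1515 in sedentary wild types and 622 to 1260 in sedentary knockouts. The lowest sum, 622, was that of library 8, which stays in the fits without libraries 2, 6 and 7. Of 12 endothelial and mural cell markers, such as Cldn5, Pecam1 and Cdh5, 11 were positive in Set A (2 called), 2 in Set B, 12 in Set D and 9 in the interaction (median 0.29, none called there by limma), and with libraries 2, 6 and 7 left out 6, 11, 10 and 3 (median -0.09, 1 called lower in the interaction). Their sums were 157 to 224 scaled TPM in running knockouts, 174.5 to 204 in running wild types, 141 to 186.5 in sedentary wild types and 106.5 to 198 in sedentary knockouts. No marker of either list was at 0 in any library, and their part in the Lpin2 differences was not tested.

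Lpin1, its paralogue, gave no call, with differences between -0.12 and 0.31 over the 5 sets. The mean was 17.6 ± 2.01 TPM in running wild types, 17.0 ± 2.22 in sedentary knockouts, 16.6 ± 3.77 in running knockouts and 15.0 ± 5.87 in sedentary wild types. The sedentary wild types read 17.3, 9.65, 22.3 and 10.9 TPM, and the 95% interval of Set B reached from -0.22 to 0.84, so that moderate differences were not detectable. Without library 3, the highest of these, Lpin1 was called in Sets B (0.51) and C (0.49) and in the interaction (-0.62), with adjusted p-values from 0.883 to 0.983. Lpin2 exceeded Lpin1 by a ratio of 4.93 ± 1.34 in running knockouts, 4.83 ± 1.58 in sedentary wild types, 3.99 ± 0.77 in running wild types and 3.37 ± 0.22 in sedentary knockouts (ratio of TPM in each of 4 libraries). Lpin3, the last of the family, was at 0.751 TPM on average.

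Other enzymes of glycerolipid synthesis gave few calls. Of 25 listed genes, both lipins included, 18 were tested. Set A had 1 higher and 2 lower, Set B 2 higher and 1 lower, and Set D 3 higher and 1 lower, where 18.5%, 6.69% and 8.63% of all genes were called. With libraries 2, 6 and 7 left out, they had 1, 1 and 4 higher and 0 lower. The shares of all genes called were then 8.49%, 6.68% and 11.2%. Chpt1, which makes phosphatidylcholine from diacylglycerol, read 29.7, 33.7, 35.0 and 39.1 TPM in sedentary knockouts, 24.7, 27.4, 27.7 and 28.2 TPM in sedentary wild types, and 28.3, 25.4, 31.1 and 27.0 TPM in running knockouts. The sedentary groups did not overlap, and Chpt1 was 0.40 ± 0.10 higher in Set B (adjusted p = 0.625, exact permutation p = 0.0286). In Set A it fell by 0.36 ± 0.11 (adjusted p = 0.184), and the interaction was -0.50 ± 0.13 (called, adjusted p = 0.797). Without libraries 2, 6 and 7 Chpt1 was -0.31 in Set A and not called, and 0.38 in Set B and -0.48 in the interaction, both called. Gpam, which adds the first fatty acid to glycerol phosphate, was 0.16 ± 0.06 higher in Set C (adjusted p = 0.985, exact permutation p = 0.0286), at 42.0 ± 1.57 against 37.3 ± 0.70 TPM, and 0.18 and still called without library 2.

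**Figure D2:**
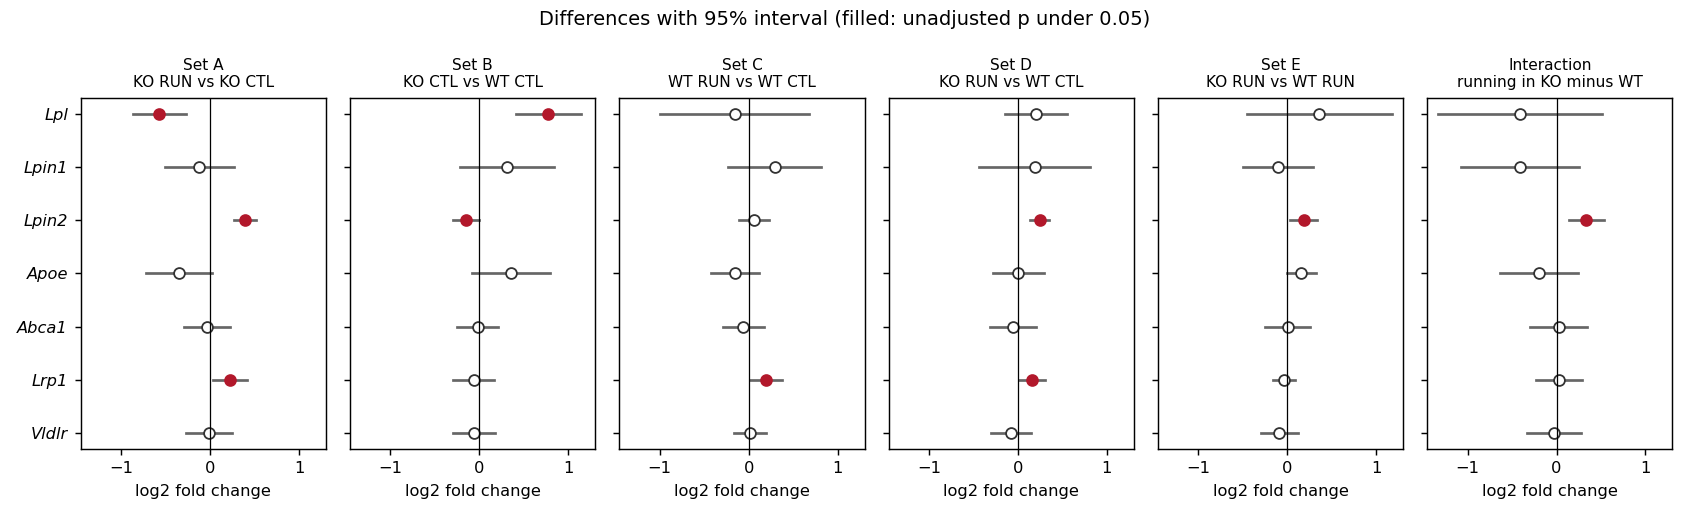
Log2 fold change of each gene (horizontal axis) in Sets A to E and in the interaction, from limma. Lines are 95% intervals and filled points have an unadjusted p under 0.05. Lpin2 is filled in every panel but Set C, Lpl in Sets A and B, and Lrp1 in Sets A, C and D.

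Apoe, the main lipid carrier of the brain, was not called in any comparison and was highest in the libraries low in nuclear RNA. It read 3827, 5083, 3925 and 3975 TPM in sedentary wild types and 4705, 6065, 5937 and 4045 TPM in sedentary knockouts. Libraries 2, 6 and 7 exceeded every other library. In running wild types Apoe was at 3621, 3558, 4071 and 3909 TPM and in running knockouts at 4115, 3711, 4372 and 4676 TPM. Set B gave 0.35 ± 0.19 (exact permutation p = 0.171) and Set A -0.35 ± 0.16 (exact permutation p = 0.114), and without libraries 2, 6 and 7 they were 0.20 and -0.07. Set E gave 0.16 (95% interval -0.01 to 0.33, exact permutation p = 0.114). Set D gave 0.01 (95% interval -0.28 to 0.30). Apoe was called in Set A without library 5 (-0.41) or 8 (-0.47), in Set B without library 2 or 8 (0.47 each), and in Set E without library 14 (0.21). Of 12 astrocyte markers, such as Gfap, Aqp4 and Aldh1l1, 11 were positive in Set B (3 called) and 0 in Set A (4 called lower). Their sums were 3445 to 5220 scaled TPM in sedentary knockouts, 3247 to 4411 in sedentary wild types, 3473 to 3884 in running knockouts and 3348 to 4103 in running wild types. With libraries 2, 6 and 7 left out, 6 of the 12 were positive in Set A (2 called lower) and 11 in Set B (3 called). None of the 12 was at 0, and their part in the Apoe values was not tested.

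Clu is another abundant apolipoprotein. The ratio of Apoe to Clu was 3.61 ± 0.19 in sedentary knockouts, 3.28 ± 0.19 in sedentary wild types, 3.28 ± 0.23 in running knockouts and 3.21 ± 0.19 in running wild types (4 libraries each). Of 15 apolipoproteins and lipid carriers 12 were tested, and Set B had 2 higher (6.69% of all genes called), Apoc1 and Apod, a lipocalin of glia. Apod was 0.80 ± 0.28 higher (adjusted p = 0.625) and 0.96 without libraries 2, 6 and 7, and its interaction was -0.74 (called, adjusted p = 0.797). Apool, a mitochondrial protein, was lower in Set D (-0.45 ± 0.15, adjusted p = 0.438) and Lcat, which esterifies cholesterol on lipoproteins, higher (0.26 ± 0.11, adjusted p = 0.577), and without library 2 they were -0.34 and 0.36, both still called. None of the list was called by limma in Set A, and 2 were called higher with libraries 2, 6 and 7 left out, where 8.49% of all genes were called. Set C had 0 higher and 1 lower with all libraries, and 3 higher and 0 lower without the 3 (5.88% of all genes called). Set D went from 1 higher and 1 lower to 4 higher and 1 lower (11.2% of all genes called).

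Abca1, the exporter that lipidates apolipoprotein E, was not called in any comparison. Its mean was 13.3 ± 1.59 TPM in sedentary wild types, 12.9 ± 1.85 in running knockouts, 12.9 ± 1.15 in running wild types and 12.6 ± 1.68 in sedentary knockouts, with the libraries between 10.7 and 15.6 TPM and all groups overlapping. Differences lay between -0.06 and 0.00 on the log2 scale in the 5 sets, with 95% intervals from -0.31 to 0.25 at the widest. Abcg1 (49.4 TPM), which also exports cholesterol, and the liver X receptors Nr1h2 (43.8 TPM) and Nr1h3 (4.67 TPM), which drive Abca1 transcription when bound by oxysterols, were not called either. Of 23 genes of cholesterol and phospholipid export Set A had 2 higher, where 18.5% of all genes were called, namely Abca3 (0.17 ± 0.07, adjusted p = 0.257) and the brain cholesterol hydroxylase Cyp46a1 (0.19 ± 0.08, adjusted p = 0.264). Leaving out libraries 2, 6 and 7, they were 0.06 and 0.13 and not called. The other calls were Abca8b in Set B (-0.41, adjusted p = 0.625), Abca8a in Set C (-0.33, adjusted p = 0.985) and Abca2 in Set D (0.11, adjusted p = 0.53). With the 3 libraries left out Abca8b was -0.29 and still called, and Abca8a was -0.26 and Abca2 0.090, neither called. Of the list, 0 were then higher and 2 lower in Set D, where 11.2% of all genes were called.

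Lrp1, a large endocytic receptor for apolipoprotein E, was called higher with running in both genotypes. It read 144, 114, 142 and 149 TPM in sedentary wild types and 159.6, 172, 149 and 151 TPM in running wild types, with no overlap once scaled. Set C gave 0.19 ± 0.08 (limma p = 0.0369, adjusted p = 0.985, exact permutation p = 0.0286), where 4.81% of all genes were called and 3.34% did not overlap. Sedentary knockouts read 152, 119, 102 and 133 TPM and running knockouts 155, 147, 149.8 and 160.4 TPM. Set A gave 0.22 ± 0.09 (limma p = 0.0287, adjusted p = 0.24, exact permutation p = 0.0857) and overlapped. Set D gave 0.16 ± 0.07 (limma p = 0.0411, adjusted p = 0.547, exact permutation p = 0.0286). The running groups differed by -0.04 (95% interval -0.17 to 0.09), and the interaction was 0.03 (-0.23 to 0.29). Libraries 7, 2 and 6 were the lowest of the 16, and without them Set A gave 0.08 and Set C 0.13, neither called, and Set D 0.09, still called. The call in Set A was also lost without library 6, 7, 13 or 16 alone (0.15 to 0.22), that in Set C without library 2, 3, 9 or 10 (0.13 to 0.20), and that in Set D without library 3, 13, 14, 15 or 16 (0.14 to 0.17).

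Vldlr, which binds lipoproteins rich in apolipoprotein E as well as reelin, was not called in any comparison. Its mean was 38.2 ± 3.31 TPM in running wild types, 37.6 ± 4.42 in sedentary wild types, 35.8 ± 5.03 in running knockouts and 34.6 ± 5.48 in sedentary knockouts. Single libraries lay between 30.0 and 42.2 TPM and all groups overlapped. Differences ranged from -0.09 to 0.01, with 95% intervals within -0.30 and 0.24. The ratio of Lrp1 to Vldlr was 4.32 ± 0.43 in running knockouts, 4.17 ± 0.58 in running wild types, 3.67 ± 0.46 in sedentary knockouts and 3.66 ± 0.25 in sedentary wild types (TPM, 4 libraries each).

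**Figure D3:**
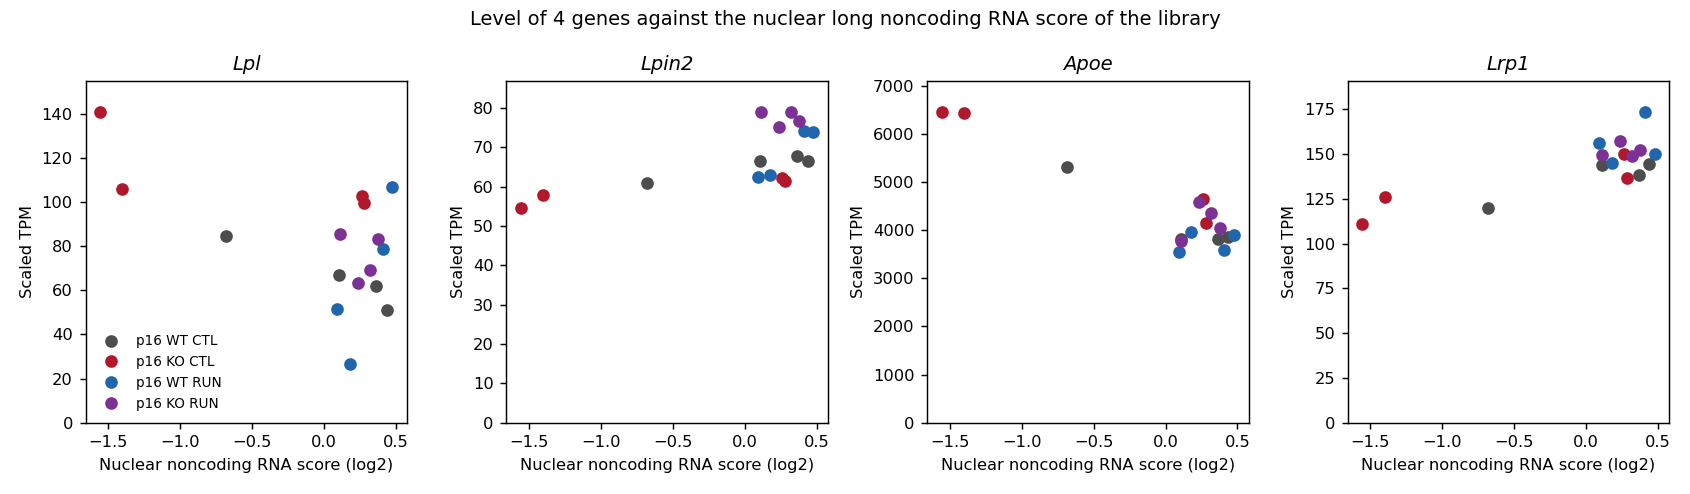
Scaled TPM of Lpl, Lpin2, Apoe and Lrp1 (vertical axes, from 0) against the nuclear long noncoding RNA score of each library (horizontal axis, mean log2 level of 9 RNAs relative to all libraries). The 3 libraries with scores of -1.56, -1.40 and -0.68 hold the highest Apoe and the lowest Lrp1, while Lpl is also high in libraries 5 and 8, at scores of 0.26 and 0.28.

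The wider list of receptors and partners includes Lrp1 and Vldlr. Of its 30 genes 28 were tested, of which 6 were higher and 1 lower in Set A, 7 higher in Set D, 3 higher in Set C and 0 in either direction in Set E (by limma at the unadjusted threshold, median 0.02). Set B had 0 higher and 1 lower, Lrp11 (-0.20 ± 0.07, adjusted p = 0.625), with 16 of 28 negative, and the interaction had 1 higher, that of reelin itself (Reln, 0.25 ± 0.11, adjusted p = 0.797). Without libraries 2, 6 and 7 these were -0.18 and 0.14, neither called. Lrp1 is among those called higher in Sets A, D and C, and 18.5%, 8.63%, 4.81%, 3.87% and 6.69% of all genes were called in Sets A, D, C, E and B, and 5.48% in the interaction. Lrp8, the apolipoprotein E receptor 2 that also binds reelin, read 49.0, 38.9, 34.4 and 43.8 TPM in sedentary knockouts and 60.9, 60.3, 58.8 and 60.0 TPM in running knockouts. It did not overlap, and Set A gave 0.48 ± 0.08 (adjusted p = 0.0861, exact permutation p = 0.0286). In wild types Lrp8 read 44.5, 39.3, 50.7 and 54.3 TPM at rest and 48.2, 61.3, 50.7 and 66.0 TPM after running, with overlap, and its interaction of 0.23 was not called. Scarb1, a receptor for high-density lipoprotein, rose by 0.40 ± 0.07 in Set A (adjusted p = 0.103). Sorl1, a sorting receptor that binds apolipoprotein E, rose by 0.37 ± 0.07, 0.35 ± 0.09 and 0.31 ± 0.07 in Sets A, C and D, with adjusted p-values of 0.124, 0.937 and 0.282. With libraries 2, 6 and 7 left out Lrp8, Scarb1 and Sorl1 were still called in Set A, at 0.35, 0.32 and 0.32. Of the list 5 were then higher and 1 lower, with a median of 0.07, where 8.49% of all genes were called. Lrp12 in Set D (0.35 ± 0.08, adjusted p = 0.245) and the sortilin-family receptor Sorcs3 in Set C (0.64 ± 0.19, adjusted p = 0.937) were also higher, and without library 2 they were 0.33 and 0.68 and still called. The medians of the list were 0.16 in Set A and 0.14 in Set D, against 0.02 and 0.00 over all genes.

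Intracellular handling of lipid gave scattered calls. Of 17 tested genes of lipolysis and lipid droplets, 1 was higher and 3 lower in Set A, 2 higher in Set B, 1 higher and 1 lower in Set D, and 1 higher and 2 lower in the interaction, where 18.5%, 6.69%, 8.63% and 5.48% of all genes were called. With libraries 2, 6 and 7 left out, Set A had 2 higher and 0 lower (8.49% of all genes called). Set B then had 3 higher and 1 lower (6.68% of all genes called). Plin2, a droplet coat protein, fell by 0.43 ± 0.13 in Set A (adjusted p = 0.201, exact permutation p = 0.0286) and by 0.27 ± 0.10 in Set D (adjusted p = 0.479, exact permutation p = 0.0286). Cidea, a lipid droplet protein, was 0.30 ± 0.08 higher in Set D (adjusted p = 0.313, exact permutation p = 0.0286), at 29.9 ± 2.14 against 24.1 ± 1.70 TPM with no overlap. Without library 2 Plin2 and Cidea were -0.24 and 0.33 in Set D, both still called. Plin3 was 0.61 ± 0.15 higher in Set B (adjusted p = 0.625), at 16.8, 22.3, 23.1 and 18.6 TPM against 11.2, 14.3, 14.7 and 14.9 TPM. G0s2, an inhibitor of adipose triglyceride lipase, was 0.34 in Set B, -0.36 in Set A and -0.42 in the interaction, all called. Leaving out libraries 2, 6 and 7, Plin2 was -0.25 in Set A and not called, and G0s2 was -0.20 in Set A, 0.22 in Set B and -0.30 in the interaction, none of them called by limma, while Plin3 was 0.43 in Set B and called. Fitm1, a droplet-forming protein, was called higher in Sets A and E, but lay at or below 1.32 TPM.

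Of 29 genes of fatty acid uptake and oxidation, 1 was higher and 2 lower in Set A, 2 higher in Set B, 3 higher in Set D, 1 lower in Set C, 1 higher in Set E and 1 lower in the interaction, where 18.5%, 6.69%, 8.63%, 4.81%, 3.87% and 5.48% of all genes were called. With libraries 2, 6 and 7 left out, Set A had 1 higher and 0 lower, and Set C 2 higher and 0 lower. Set B then had 3 higher and Set D 5. In these fits of Sets A, C, B and D, 8.49%, 5.88%, 6.68% and 11.2% of all genes were called. The acyl-CoA dehydrogenase Acadl fell by 0.35 ± 0.11 in Set A (adjusted p = 0.203), and without libraries 2, 6 and 7 it was -0.14 and not called. Acadm, another of these enzymes, was 0.22 ± 0.05 higher in Set E (adjusted p = 1, exact permutation p = 0.0286) and called lower in Set C (-0.18 ± 0.08, adjusted p = 0.985), at 43.7 ± 2.15 TPM in running wild types, 49.1 ± 4.08 in sedentary wild types and 50.7 ± 3.33 in running knockouts. Its Set D value was 0.04 and not called, and without library 2 Set C gave -0.12, not called. Of 25 genes of cholesterol synthesis none had an unadjusted limma p under 0.05 in any comparison with all libraries, and their medians were 0.09 in Set B, -0.06 in Set A, 0.10 in Set C and -0.14 in the interaction. With libraries 2, 6 and 7 left out, 5 of the 25 were called higher in Set C (median 0.21, 5.88% of all genes called) and none in the other comparisons, and the median in Set B was 0.22.

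**Figure D4:**
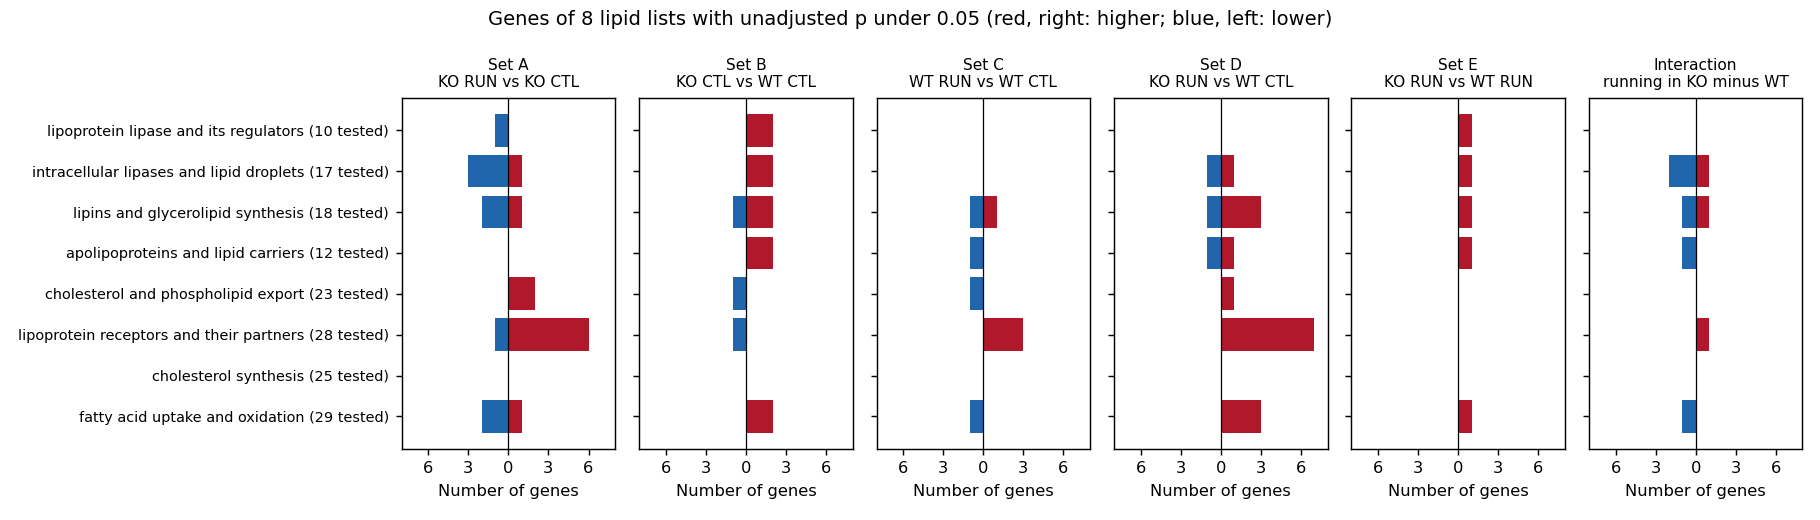
Number of genes with an unadjusted p under 0.05 in 8 lists (bars to the right, higher; to the left, lower) for Sets A to E and the interaction. The list of lipoprotein receptors has 6 higher genes in Set A and 7 in Set D of 28 tested, and that of cholesterol synthesis has none of 25 with all libraries, against 5 in Set C with libraries 2, 6 and 7 left out.

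Counted together, Set A called 3 of the 7 genes (Lpl, Lpin2 and Lrp1; 18.5% of all genes), Set B 2 (Lpl and Lpin2; 6.69%) and Set D 2 (Lpin2 and Lrp1; 8.63%). Set C called Lrp1 alone, and Set E and the interaction Lpin2 alone. The 7 genes were chosen with earlier results of these data known, so these counts are descriptions and do not measure enrichment. None of the 7 had an adjusted p under 0.05 by limma in any comparison, against 3 of all genes in Set A (0.0173%), 1 in Set E (0.00577%) and 0.00% in the others. With libraries 2, 6 and 7 left out, Sets A to D called 2, 1, 0 and 3 of the 7 and the interaction 1, where 8.49%, 6.68%, 5.88%, 11.2% and 7.25% of all genes were called.

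The 7 genes did not share one profile over the libraries. The profiles most like each of them, by Pearson's r of log2 scaled TPM over the 16 libraries among 14437 other genes, are descriptions, since libraries share their group and RNA quality. For Lpl they were Actg1 (0.90), Hapln4 (0.90) and Ccdc28a (0.88), and after subtracting each group's mean r was 0.85, 0.88 and 0.82. Hapln4, a link protein of the perineuronal net, read 93.5, 141, 57.5 and 131 TPM in running wild types, lowest in the same library as Lpl. For Lpin2 they were Gabbr2 (0.93), a subunit of the GABA-B receptor, Lrp8 (0.93) and Galnt14 (0.92), with 0.77, 0.92 and 0.70 within groups. Lpin1 was closest to Atcay (0.75), Gm12191 (0.75) and Pdpk1 (0.75), and Abca1 to Sgsh (0.77), Zkscan17 (0.72) and Lca5l (0.72). Apoe was closest to Glud1 (0.98), Gpc5 (0.98) and Scg3 (0.97), Lrp1 to Grin2a (0.95) and Dennd5b (0.94), and Vldlr to Phf2 (0.94), Patz1 (0.93) and Foxo1 (0.93). Between members, r was 0.73 for Lpin2 and Lrp1, -0.79 for Apoe and Lrp1, and 0.04 for Lpin1 and Lpin2.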

How the data were processed

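RNA of the dentate gyrus was sequenced in 16 libraries of 4 groups, each library pooled from 2 mice. The authors demultiplexed reads with bcl2fastq 2.20, masked adapters with Cutadapt 1.11, trimmed with ERNE, aligned to mm10 with STAR and computed gene abundances with StringTie. TPM values, per the file headers, are StringTie abundances per transcript length, expressed as a share of each library. FPKM values were deposited by the authors in the same tables and were not used. Coverage values, as deposited, are means per base and served for relative depth. The tables hold no read counts, so precision rests on the 4 libraries per group.

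Repeated gene names (112 to 130 in a library) were summed. Libraries were scaled by median of ratios, using 13226 genes that reached 1 TPM everywhere. Genes averaging 0.1 TPM or more (17317) entered limma 3.58.1 in R 4.3.3, with a variance trend, on log2(scaled TPM + 0.1), which understates changes of low genes. Each set was fitted on its own 8 libraries and the interaction on all 16. On simulated data with 17317 genes in each fit, of 50 genes changed by 0.5 on the log2 scale those called unadjusted (and adjusted) were 90% (42%) for Set A, 68% (36%) for Set B, 82% (44%) for Set C, 88% (46%) for Set D, 76% (30%) for Set E and 90% (34%) for the interaction. Simulated noise was normal and independent between libraries, with the same SD of a gene in all groups, and changed genes averaged at least 1 scaled TPM. Shifts shared by genes of a library, such as low nuclear RNA, and SDs that differ between groups were not simulated. Python 3.11.15 and matplotlib 3.10.9 served for tables and figures.

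The members, pathway lists and marker lists were chosen with earlier results of these data known. Genes named were the members, per list and comparison at most 3 called genes of smallest p, the 3 most similar genes per member, and the first 3 markers of a list. Some results that fall under this rule are not reported here. Genes named for their level or for a missing call were chosen after their values were seen. Alternatives were TPM as deposited, quantile normalization, pseudocounts of 1 and 0.01, a filter at 1 TPM, no filter, no trend, the highest entry per name, a nuclear RNA score as covariate, all 16 libraries in one fit, and leaving out each library.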

Additional observations from a re-analysis of the deposited data

Results flagged for a closer look

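In 28 tests of 7 genes in 4 groups, on scaled TPM, 3 libraries lay far from the others of their group (by Dixon's test at the 95% level). Chance flags about 1 in 20 such groups. Lpl in library 7 of the sedentary knockouts, at 140.7 scaled TPM against 99.4 to 105.9, had a gap of 0.843 of the range. Choroid plexus markers summed to 234.5 scaled TPM in that library, where no other exceeded 64.0, and their part in its Lpl level was not tested. Lpin1 in library 5 of the same group, at 19.95 scaled TPM against 16.72 to 16.95, had 0.929. Apoe in library 2 of the sedentary wild types, at 5321 scaled TPM against 3820 to 3854, had 0.977. The effect of running on Lpin2 differed between genotypes, by 0.33 on the log2 scale in the interaction (adjusted p = 0.797).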

How the results depend on the processing

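The groups were compared as unpaired, since the labels match no library of a group to a library of another group. Of the results that answer a comparison, 314 values under alternatives kept direction and side of the threshold (or stayed near the count), 28 counts moved, 12 values lost and 4 gained a call, and 2 reversed. Of the other named values 508 kept both, 23 lost and 10 gained a call, and 59 reversed.

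For members called, Set A had 2 (not 3) in 3 settings, namely no trend, the nuclear score as covariate, and libraries 2, 6 and 7 left out, each time through the loss of Lrp1. Set B had 1 (not 2) with no trend, with the nuclear score as covariate and without libraries 2, 6 and 7, Set C had 0 (not 1) in the same 3 settings, and Set D had 1 (not 2) with TPM as deposited, quantile normalization, no trend and all 16 libraries in one fit. With all 16 libraries in one fit, Lpl in Set A was -0.57 and not called, while Apoe was called in Set A (-0.35) and Set B (0.35), which gave 3 members in each. Lpin2 in Set B was not called with no trend (-0.15), with the covariate (-0.089) and without the 3 libraries (-0.11). Lpl in Set D was called with the covariate (0.31) and without the 3 (0.33). The cause was not tested. Over all genes, with the Set A members among them, Set A called 3196, 1685 with the covariate and 1470 without the 3 libraries, and Set B, with the Set B members among them, 1158, 764 with the covariate and 2205 in the fit of all 16.

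The sign of uncalled members near 0 changed as follows. With TPM as deposited, Abca1 was 0.030 and Vldlr 0.052 in Set A, Abca1 -0.0043 in Set E and Vldlr 0.025 in the interaction. With quantile normalization, Abca1 was 0.028 in Set B and -0.021 in the interaction, and Apoe -0.053 in Set D. With the covariate, Abca1 was 0.034 and Lrp1 0.049 in Set B, Vldlr -0.018 in Set C, and Apoe 0.0086, Abca1 -0.035 and Lrp1 -0.081 in the interaction. Without the 3 libraries, Abca1 was 0.031 and Lrp1 0.0090 in Set B, Vldlr -0.036 in Set C, and Abca1 -0.027, Lrp1 -0.046 and Vldlr 0.0036 in the interaction.

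Leaving out each library in turn gave 2 to 4 members called in Set A, 1 to 3 in Set B, 0 to 1 in Set C, 1 to 3 in Set D, 0 to 2 in Set E and 1 to 2 in the interaction. Over all genes the same fits called 2023 to 4738 beside the Set A members, 557 to 3029 beside the Set B members, 531 to 1018 beside the Set C members, 1130 to 1934 beside the Set D members, 486 to 1048 beside the Set E members and 619 to 2381 beside the Interaction members. Without single libraries, Lpl ranged from -0.45 to 0.22 in Set C, from 0.084 to 0.33 in Set D, from -0.015 to 0.65 in Set E and from -0.79 to -0.12 in the interaction. Lpin2 ranged from -0.18 to -0.11 in Set B and from 0.14 to 0.22 in Set E. Lpin1 ranged from -0.21 to 0.065 in Set A and from -0.19 to 0.083 in Set E, and Apoe from -0.040 to 0.12 in Set D. Abca1 ranged from -0.11 to 0.043 in Set A, -0.085 to 0.044 in Set B, -0.11 to 0.0052 in Set C, -0.13 to 0.021 in Set D, -0.071 to 0.081 in Set E and -0.050 to 0.10 in the interaction. Lrp1 ranged from -0.13 to 0.0093 in Set B, -0.072 to 0.014 in Set E and -0.047 to 0.097 in the interaction. Vldlr ranged from -0.089 to 0.057 in Set A, -0.036 to 0.060 in Set C and -0.10 to 0.043 in the interaction.

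Depth entered here only as relative coverage between libraries, and the number of libraries per group limits precision.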
